A study of Mus musculus with 27 samples.

Results

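The voltage-gated potassium (Kv) channel genes were examined in RNA sequencing (RNA-seq) of mouse cortex and hippocampus after a 14-day infusion of antibodies into the brain. A gene counted as a member when it is protein-coding in GENCODE M21 and its symbol is Kcna, Kcnab, Kcnb, Kcnc, Kcnd, Kcnf, Kcng, Kcnh, Kcnq, Kcns or Kcnv followed by a number. This name rule found 43 of the 55487 genes in the count table, in 11 subfamilies on 16 chromosomes, and used no measured value. The mice were male C57Bl/6J animals, 8 weeks old at the infusion, and an osmotic pump delivered the fluid to the right lateral ventricle at 0.25 µl per hour. One group received antibodies against the neuronal surface protein IgLON5 (α-IgLON5), purified from the plasma of a patient with anti-IgLON5 disease. The other groups received a human control IgG or phosphate-buffered saline (PBS) alone. The labels call the control a non-reactive monoclonal IgG, whereas the study's methods describe IgG from healthy serum, and it is called control IgG here. Cortex was sequenced from 5 PBS, 5 control IgG and 4 α-IgLON5 mice, and hippocampus from 5, 4 and 4 of them, which gave 27 libraries of 14 mice from the hemisphere opposite to the pump. Every mouse was wild type and carried a pump, so no library comes from an untouched brain, and all α-IgLON5 mice received antibodies of a single patient. No library was made to select a cell type, although the labels give neurons, and markers of astrocytes (summed level 5280 to 8045 CPM) and oligodendrocytes (1838 to 4997 CPM) were present beside pan-neuronal markers (7618 to 10780 CPM). CPM are counts scaled to an equal effective library size after TMM (trimmed mean of M values) normalization. In such bulk samples, fewer cells of a type and less RNA per cell cannot be told apart.

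Kv channels are tetramers that open on depolarization and let potassium leave the cell, so that they set the resting excitability, the shape of the action potential and the firing rate of neurons. The Kcna genes encode Kv1 subunits of low-threshold axonal channels, and Kcnab genes their cytoplasmic β subunits. Kcnb genes encode the Kv2 delayed rectifiers of the soma and proximal dendrite, Kcnc genes the fast Kv3 channels of rapidly firing cells, and Kcnd genes the Kv4 channels of the dendritic A-type current. The Kcnf, Kcng, Kcns and Kcnv subunits form no working channel alone and modify Kv2 channels. Kcnh genes encode the EAG, ERG and ELK channels, and Kcnq genes the Kv7 channels of the muscarine-sensitive M-current. The study asked what α-IgLON5 antibodies do to neurons and their activity, and Kv channels are among the proteins that set it.

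A stretch of the pore, the selectivity filter, lets potassium pass and is what the pore-forming members share. It was looked for in the coding sequence of each member as T or S, then V, I, T, L, A or C, then G, Y or F and G, and 40 pore-forming members held 1 match each, while the 3 Kcnab genes, whose products are no pore subunits, held none. The central aromatic residue was a tyrosine in 32 members and a phenylalanine in 8, and these 8 were the Kcnh genes. The filter codons differed between nearly all members (36 different sequences in the 39 genes compared), with identical codons, for example, in Kcnh3 and Kcnh6. The 45-base coding stretches of the members that carry most of the results below are shown 5′ to 3′ on the coding strand, from the GRCm38 genome with GENCODE M21 coding exons, with the 15 filter bases in capitals.
Kcna2 (chr3:107105209-107105253, plus strand): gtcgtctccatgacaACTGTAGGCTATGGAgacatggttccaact
Kcnb2 (chr1:15710031-15710075, plus strand): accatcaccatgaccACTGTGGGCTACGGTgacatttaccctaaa
Kcnc2 (chr10:112456214-112456258, plus strand): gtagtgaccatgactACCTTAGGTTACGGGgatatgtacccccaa
Kcnf1 (chr12:17175046-17175090, minus strand): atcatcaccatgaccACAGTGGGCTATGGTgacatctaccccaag
Kcnv1 (chr15:45109274-45109318, minus strand): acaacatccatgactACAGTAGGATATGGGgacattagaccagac
Kcnh3 (chr15:99232914-99232958, plus strand): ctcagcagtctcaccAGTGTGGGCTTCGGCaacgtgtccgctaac
Kcnh4 (chr11:100750278-100750322, minus strand): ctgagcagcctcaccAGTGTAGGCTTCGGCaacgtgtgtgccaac
Kcnh5 (chr12:75087451-75087495, minus strand): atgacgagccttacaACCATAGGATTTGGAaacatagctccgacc
Kcnh7 (chr2:62777328-62777372, minus strand): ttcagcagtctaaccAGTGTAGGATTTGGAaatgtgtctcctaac
Kcnh8 (chr17:52877976-52878020, plus strand): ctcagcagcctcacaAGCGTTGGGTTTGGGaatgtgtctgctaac
The silent subunits Kcnf1 and Kcnv1 carry the same kind of filter as the conducting subunits Kcna2, Kcnb2 and Kcnc2, and the sequences of Kcnh3, Kcnh4, Kcnh5, Kcnh7 and Kcnh8 hold the phenylalanine codon.

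Library totals ran from 19385642 to 58550621 counts (median 34061205), and the members took 0.321% to 0.4065% of them. Of the members, 40 passed the filter of at least 10 counts in at least 4 libraries, and Kcna7 (0 to 5 counts), Kcna10 (0 to 8 counts) and Kcnv2 (0 to 8 counts), known mainly from muscle, other organs and the retina, did not. A gene was called at an adjusted p under 0.05 in edgeR's quasi-likelihood test over all 20271 genes that passed. A tissue composition score, the mean log2 CPM of 12 cortical genes minus that of 12 hippocampal genes, ran from 2.433 to 3.203 in the cortices and from -2.883 to -1.332 in the hippocampi of PBS and α-IgLON5 mice. The control IgG hippocampi scored -0.2799 (mouse 10), -1.518 (mouse 15), 0.3802 (mouse 37) and -1.349 (mouse 75), so mice 10 and 37 stood apart toward the cortex. Counts of members called by edgeR that rest on these libraries are given with and without them. Microglial markers were higher in α-IgLON5 than in control IgG hippocampi (8 of 10 genes called), and lymphocyte markers likewise (6 of 8), with no member in either list.

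Levels of different genes are compared per kilobase of exon. Kcnab2, a β subunit of Kv1 channels, had the highest level in PBS cortex, with 74.2 ± 6.08 CPM per kb (SD, n = 5), and in PBS hippocampus, with 101 ± 10.2, and its range lay apart from that of the next gene in both tissues. In cortex Kcnf1, a silent modifier of Kv2 channels, was next (41.9 ± 4.75), and the Kv3 subunit Kcnc4 (31.1 ± 1.45) and the Kv1 subunit Kcna2 (27.3 ± 0.601) were among the genes that followed. In hippocampus the genes that followed included, in order, Kcnc4 (29.2 ± 3.70), Kcnd2 (23 ± 2.02), Kcnc1 (22.1 ± 0.870), Kcnf1 (20.9 ± 3.30) and Kcna2 (20.5 ± 1.92). The ranges of neighbours in this order overlapped. The length is the union of all annotated exons, which understates genes with many isoforms or long untranslated regions. Among the lowest of the tested members, Kcnh8, an ELK-type subunit, had 0.0671 ± 0.00732 CPM per kb in cortex and 0.234 ± 0.0972 in hippocampus.

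**Figure D1:**
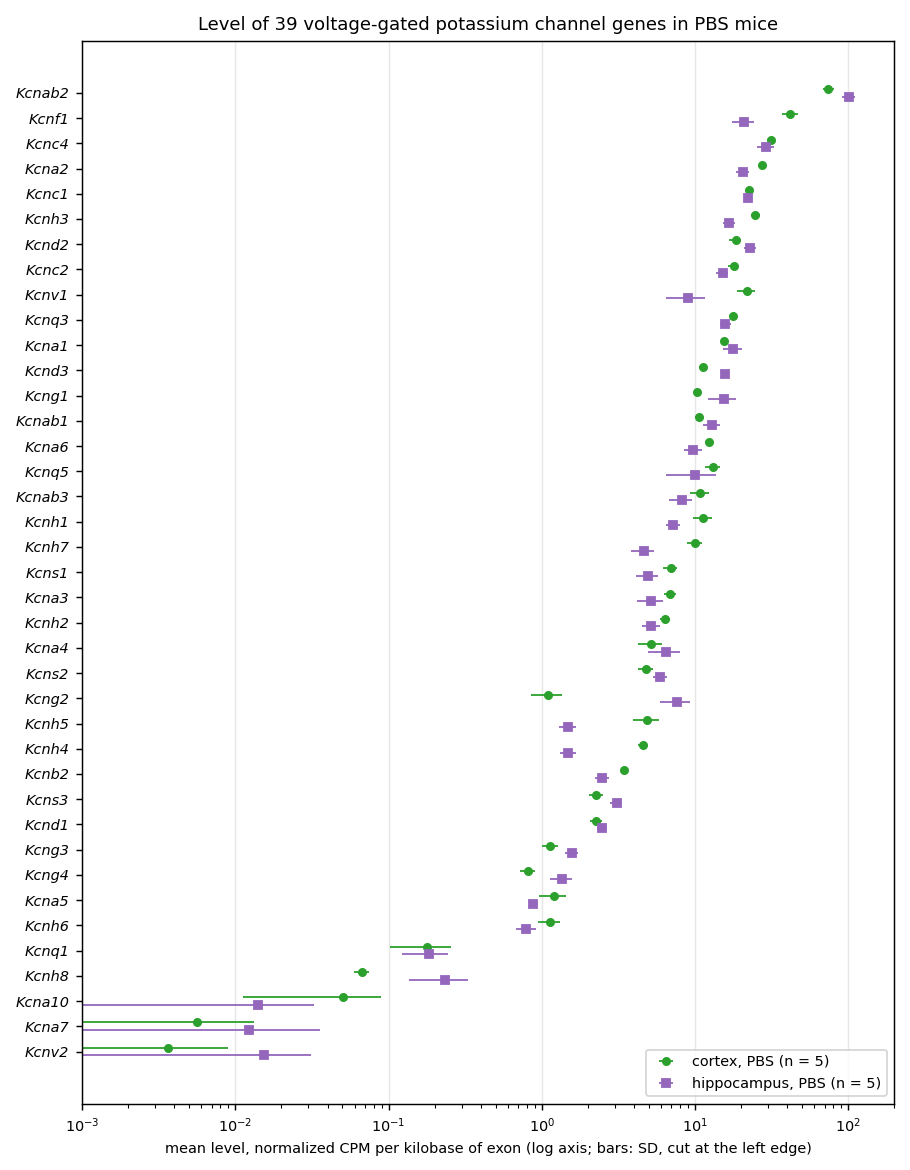
Mean level per gene in CPM per kb of exon (log axis, bars are SD, n = 5 libraries per tissue) in PBS cortex and PBS hippocampus, for 39 members ordered by their mean level over all libraries. Kcnab2 stood highest in both tissues (74.2 and 101 CPM per kb).

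Summed over the members of a subfamily, the CPM also differed between tissues. The β subunits (Kcnab) made up 13.4 ± 0.599% of all member CPM in PBS cortex and 18.5 ± 1.51% in PBS hippocampus (SD, n = 5 each). The EAG, ERG and ELK genes (Kcnh) made up 11.3 ± 0.433% in cortex and 6.93 ± 0.323% in hippocampus. The A-type subunits (Kcnd) went the other way, with 5.39 ± 0.244% in cortex and 7.47 ± 0.185% in hippocampus. These are shares of CPM not divided by length and carry no test.

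The first comparison set cortex against hippocampus in PBS mice, without any antibody. Kv channel genes were often unequal between the tissues: of 40 members, 19 were higher in cortex and 13 were higher in hippocampus. Among all tested genes 26.7% were called in this comparison, 14.1% higher and 12.7% lower in cortex. The median log2 fold change of cortex over hippocampus was 0.20 over the members and -0.01 over all tested genes. Members past a 2-fold difference numbered 7, beside 5.57% of all genes, and 36 members had an unadjusted p under 0.05, beside 35.9%.

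The subfamilies split by direction. Of the 8 Kcnh genes, 7 were higher in cortex (Kcnh1, Kcnh2, Kcnh3, Kcnh4, Kcnh5, Kcnh6 and Kcnh7) and Kcnh8 was higher in hippocampus. The others higher in cortex included the Kv2 gene Kcnb2, 3 Kv1 genes (Kcna2, Kcna3 and Kcna6), Kcnc2, Kcnf1, Kcnv1, Kcnq3, Kcns1 and Kcnab3. Those higher in hippocampus included all 4 Kcng genes, 2 of 3 Kcnd genes (Kcnd2 and Kcnd3), 2 of 3 Kcns genes (Kcns2 and Kcns3), Kcnab1 and Kcnab2. The silent subunits therefore did not move as a block, with Kcnf1, Kcnv1 and Kcns1 in one direction and Kcng1 to Kcng4, Kcns2 and Kcns3 in the other. Not called were Kcna1, Kcna4, Kcna5, Kcnc1, Kcnc4, Kcnd1, Kcnq1 and Kcnq5. The tissues come from the same mice, and with the mouse as a block edgeR called Kcna4, a Kv1 subunit, higher in hippocampus (log2 fold change -0.31, adjusted p = 0.000477) and Kcnq5, an M-current subunit, higher in cortex (0.44, adjusted p = 0.0233). Without the block, leaving out 1 library took the call from Kcnq3 in 8 of 10 runs and from Kcnh6 in 7. It was lost in 5 runs for Kcnab3 and for Kcns2, 3 for Kcng3 and 2 for Kcna3.

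**Figure D2:**
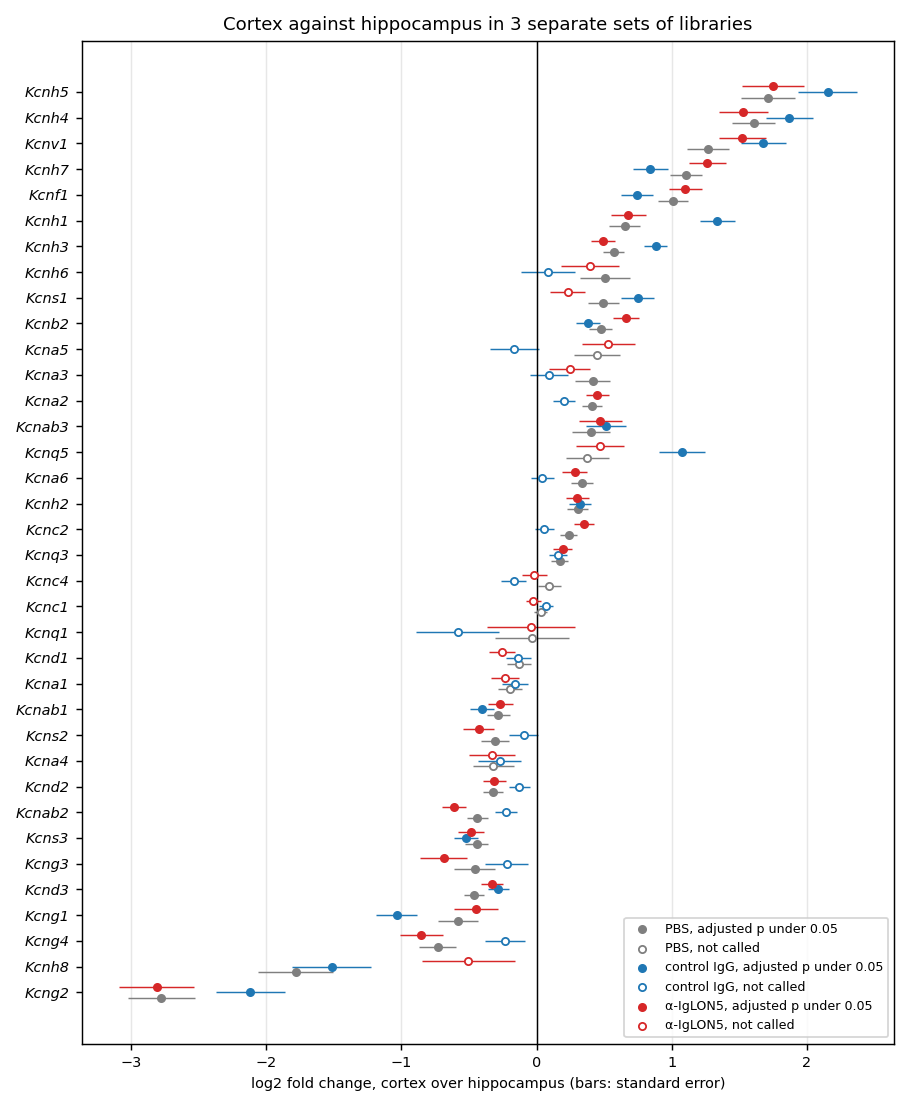
Log2 fold change of cortex over hippocampus for 36 of the 40 tested members in PBS, control IgG and α-IgLON5 mice, from 1 fit over 27 libraries (bars are SE, filled points are called). Kcnh5, Kcnh4 and Kcnv1 lay furthest on the cortical side in PBS mice and Kcng2 and Kcnh8 furthest on the hippocampal side.

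Values for single libraries are given in the order of mouse numbers, which is 14, 32, 33, 38 and 74 for PBS mice. Kcng2, a silent Kv2 modifier, had the largest difference of all members. Its level was 2.69, 3.64, 2.62, 3.09 and 4.48 CPM in the PBS cortices and 23.3, 21.1, 18.2, 20.1 and 30.9 CPM in the hippocampi. No cortex reached the lowest hippocampus (cortex over hippocampus, log2 fold change -2.77, SE 0.248, adjusted p = 7.61e-09 by edgeR). A transcript of unknown type on the other strand shares 272 exon bases with Kcng2, and whether the counting used strand is not stated. Kcng1, of the same subfamily, differed less, with 45.1, 47.2, 45.3, 46.5 and 47 CPM in cortex and 52.4, 63.3, 85.2, 83.4 and 61.7 CPM in hippocampus. The cortices were nearly alike and all lay under the lowest hippocampus (log2 fold change -0.58, SE 0.145, adjusted p = 0.00316).

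Kcnh4, an ELK-type subunit of the forebrain, lay on the cortical side, with 19.8, 17.2, 16.6, 18.7 and 17.6 CPM in the PBS cortices and 5.18, 6.73, 5.16, 6.44 and 5.96 CPM in the hippocampi. The groups did not overlap (log2 fold change 1.60, SE 0.159, adjusted p = 3.25e-08). Kcnh5, an EAG-type subunit, was at 23.4, 20.4, 23.5, 16.8 and 14.8 CPM in cortex and 5.39, 6.64, 4.99, 6.38 and 6.71 CPM in hippocampus, again without overlap (log2 fold change 1.71, SE 0.2, adjusted p = 3.47e-07). Kcnh7, an ERG-type subunit, was at 178, 149, 158, 134 and 139 CPM in cortex and 64.8, 63, 88.8, 76.1 and 59.9 CPM in hippocampus. It had no overlap either (log2 fold change 1.11, SE 0.12, adjusted p = 1.19e-07), and it shares 696 exon bases with Gca on the other strand. Kcnh3, another ELK-type subunit, was at 139.8, 148, 147, 127 and 151 CPM in cortex and 94, 95.4, 84.2, 106 and 101 CPM in hippocampus. All cortices lay above all hippocampi (log2 fold change 0.57, SE 0.0794, adjusted p = 4.25e-06). Kcnh8 was the exception in the subfamily, with 0.251, 0.325, 0.336, 0.315 and 0.302 CPM in cortex and 0.989, 0.541, 0.792, 1.36 and 1.65 CPM in hippocampus. Every hippocampus lay above every cortex (log2 fold change -1.78, SE 0.28, adjusted p = 2.11e-05). The PBS cortices held only 8 to 11 counts of Kcnh8 each.

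Of the Kv2 modifiers on the cortical side, Kcnf1 was at 222, 203, 223, 170.0 and 187 CPM in the PBS cortices and 84.2, 96.6, 107, 123 and 88.1 CPM in the hippocampi. The lowest cortex exceeded the highest hippocampus (log2 fold change 1.01, SE 0.109, adjusted p = 1.16e-07). Kcnv1, whose product silences or shifts Kv2 currents, was at 109, 105, 103, 75.7 and 107 CPM in cortex and 37.5, 52.8, 35.9, 26.5 and 54.6 CPM in hippocampus. The cortex of mouse 38 was low for its group, and the groups did not overlap (log2 fold change 1.27, SE 0.153, adjusted p = 5.58e-07).

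The Kv3 gene Kcnc2 differed by less than these (log2 fold change 0.24, SE 0.0644), while Kcnc1 (0.03, SE 0.0489) and Kcnc4 (0.09, SE 0.0853) were not called. The β subunit Kcnab2 was at 429.7, 416, 419, 358 and 448 CPM in cortex and 631, 556, 491, 525 and 603.5 CPM in hippocampus. Its groups lay apart (log2 fold change -0.44, SE 0.0785, adjusted p = 0.000109).

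**Figure D3:**
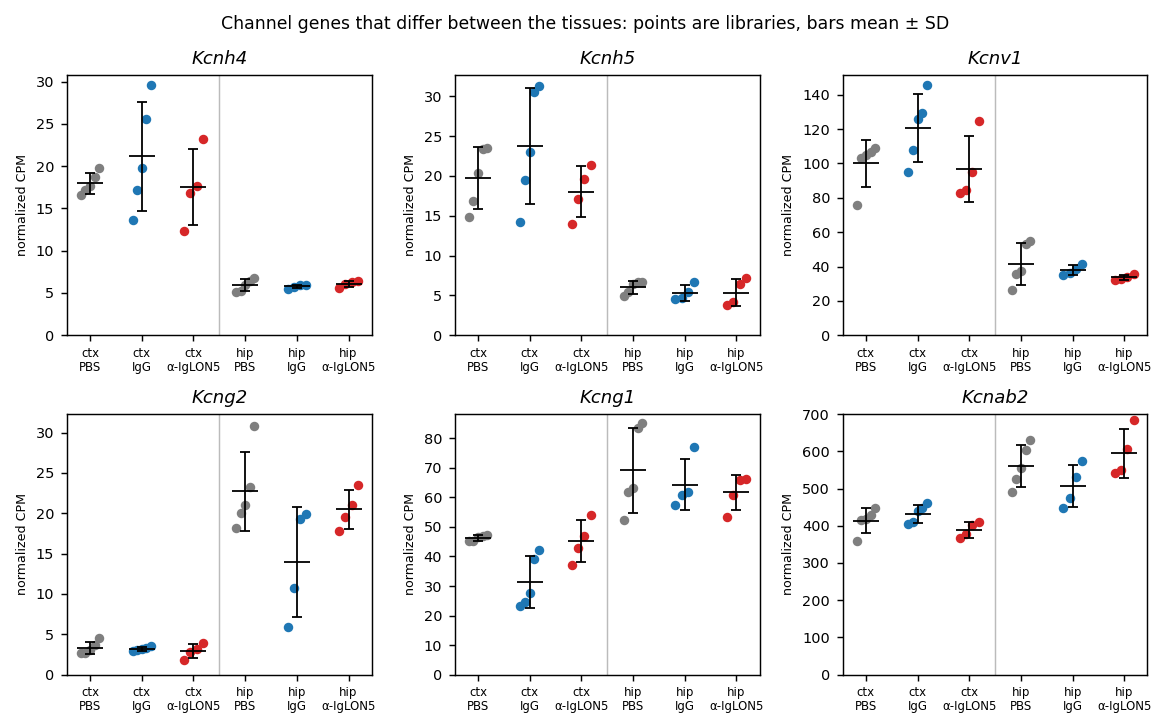
CPM of 6 members in each library of the 6 groups (points are libraries, bars are mean and SD). Kcnh4, Kcnh5 and Kcnv1 lay higher in PBS cortex than in PBS hippocampus, and Kcng2, Kcng1 and Kcnab2 lay lower.

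The same tissue comparison was run in the control IgG and α-IgLON5 mice, which share no library with the PBS comparison. In control IgG mice 13 members were called higher and 7 lower in cortex, beside 10.7% and 9.23% of all genes (19.9% in either direction). In α-IgLON5 mice 15 were called higher and 12 lower, beside 12% and 11.8% (23.9% in either direction). Past a 2-fold difference there were 8 members in control IgG and 6 in α-IgLON5 mice, beside 4.45% and 5.16% of all genes. At an unadjusted p under 0.05 there were 23 members in control IgG and 31 in α-IgLON5 mice, beside 31.5% and 34.5%. Of the 32 members called in PBS mice, 31 had the same sign in control IgG mice, where 19 were called, and 32 had it in α-IgLON5 mice, where 27 were called. Called in all 3 were 11 members higher in cortex (among them Kcnab3, Kcnb2, Kcnf1, Kcnh1, Kcnh2, Kcnh3, Kcnh4, Kcnh5, Kcnh7 and Kcnv1) and 6 higher in hippocampus (among them Kcnab1, Kcnd3, Kcng1, Kcng2 and Kcns3). With 1 library left out, Kcnab3 lost its call in 5 of 10 runs in PBS, 2 of 9 in control IgG and 5 of 8 in α-IgLON5 mice. Kcng1 lost it in 6 of 8 and Kcnab1 in 5 of 8 runs in α-IgLON5 mice, and Kcnd3 in 1 of 9 in control IgG mice. No member was called in opposite directions, and 7 were called in none of the 3 treatments (Kcna1, Kcna4, Kcna5, Kcnc1, Kcnc4, Kcnd1 and Kcnq1). How often other genes repeat their tissue difference was not counted, so these repeats are not shown to be particular to the members. With the mouse as a block Kcna4 was called higher in hippocampus in control IgG (-0.27, adjusted p = 0.0058) and α-IgLON5 mice (-0.32, adjusted p = 0.0011) too, and Kcnd1 in α-IgLON5 mice (-0.26, adjusted p = 0.0416). Without the block Kcnq5 was called in control IgG mice only (log2 fold change 1.07), with 0.38 in PBS and 0.47 in α-IgLON5 mice, and the difference between treatments in this value was not called where it was tested (α-IgLON5 against control IgG). With the block Kcnq5 was also called in PBS and in α-IgLON5 mice (0.46, adjusted p = 0.0336 in the latter). Kcnh8 had -1.78 in PBS, -1.52 in control IgG and -0.50 in α-IgLON5 mice, and the last was not called. Without the hippocampi of mice 10 and 37, 23 members were called in control IgG mice instead of 20, beside 18.4% of all genes in that fit.

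The second comparison set α-IgLON5 against control IgG hippocampi. There 6 of 40 members were called, all of them lower after α-IgLON5, beside 7.01% of all genes in either direction, 4.23% higher and 2.78% lower. These were Kcnc2, Kcnh7, Kcnb2, Kcnf1, Kcna2 and Kcnh8, which belong to the Kv3, ERG, Kv2, Kv2-modifier, Kv1 and ELK classes. The median log2 fold change was -0.01 over the members and 0.00 over all tested genes, with 18 members above 0 and 22 below (49.7% of all genes below). At an unadjusted p under 0.05 there were 14 members, beside 21.9% of all genes, and 1 called member was past a 2-fold difference, beside 2.45%. All 4 Kcng, 3 Kcns and 3 Kcnd genes were without a call.

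Libraries are given for mice 10, 15, 37 and 75 (control IgG) and mice 8, 9, 16 and 17 (α-IgLON5). Kcnc2, a Kv3 subunit of fast-firing interneurons, was at 122, 115, 121 and 115 CPM after control IgG and 92.7, 89.2, 109 and 87.6 CPM after α-IgLON5. The highest α-IgLON5 hippocampus stayed under the lowest control (log2 fold change -0.32, SE 0.0723, adjusted p = 0.00678). Kcnh7 was at 95.9, 84.6, 90.1 and 66.6 CPM after control IgG and 52.1, 49.6, 67.6 and 55 CPM after α-IgLON5. The groups met at mouse 75 of the controls and mouse 16 of the treated (log2 fold change -0.59, SE 0.134, adjusted p = 0.00787). Kcnb2, a Kv2 delayed rectifier, was at 38.4, 38.5, 45.4 and 33.4 CPM after control IgG and 29.1, 24.8, 34.7 and 29.5 CPM after α-IgLON5. The same 2 mice overlapped (log2 fold change -0.39, SE 0.0966, adjusted p = 0.0133). Kcnf1 was at 139.8, 121, 151 and 99 CPM after control IgG and 88.1, 78.8, 106 and 89.3 CPM after α-IgLON5. Mouse 75 lay under mouse 16 again (log2 fold change -0.49, SE 0.121, adjusted p = 0.0133). Kcna2, a Kv1 subunit of axons, was at 303, 260.2, 288 and 229.8 CPM after control IgG and 231, 182.5, 249 and 208 CPM after α-IgLON5. Mouse 75 lay under mice 8 and 16 (log2 fold change -0.31, SE 0.0831, adjusted p = 0.022).

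Kcnh8 had the largest fold of the called members and the fewest reads, with 55, 51, 29 and 36 counts in the control IgG hippocampi and 11, 9, 11 and 16 in the α-IgLON5 hippocampi. These correspond to 1.12, 0.959, 0.690 and 0.884 CPM and 0.541, 0.507, 0.337 and 0.459 CPM. The groups did not overlap (log2 fold change -1.01, SE 0.307, adjusted p = 0.0442). The call was lost on leaving out any of the 8 libraries (adjusted p = 0.0571 to 0.135).

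**Figure D4:**
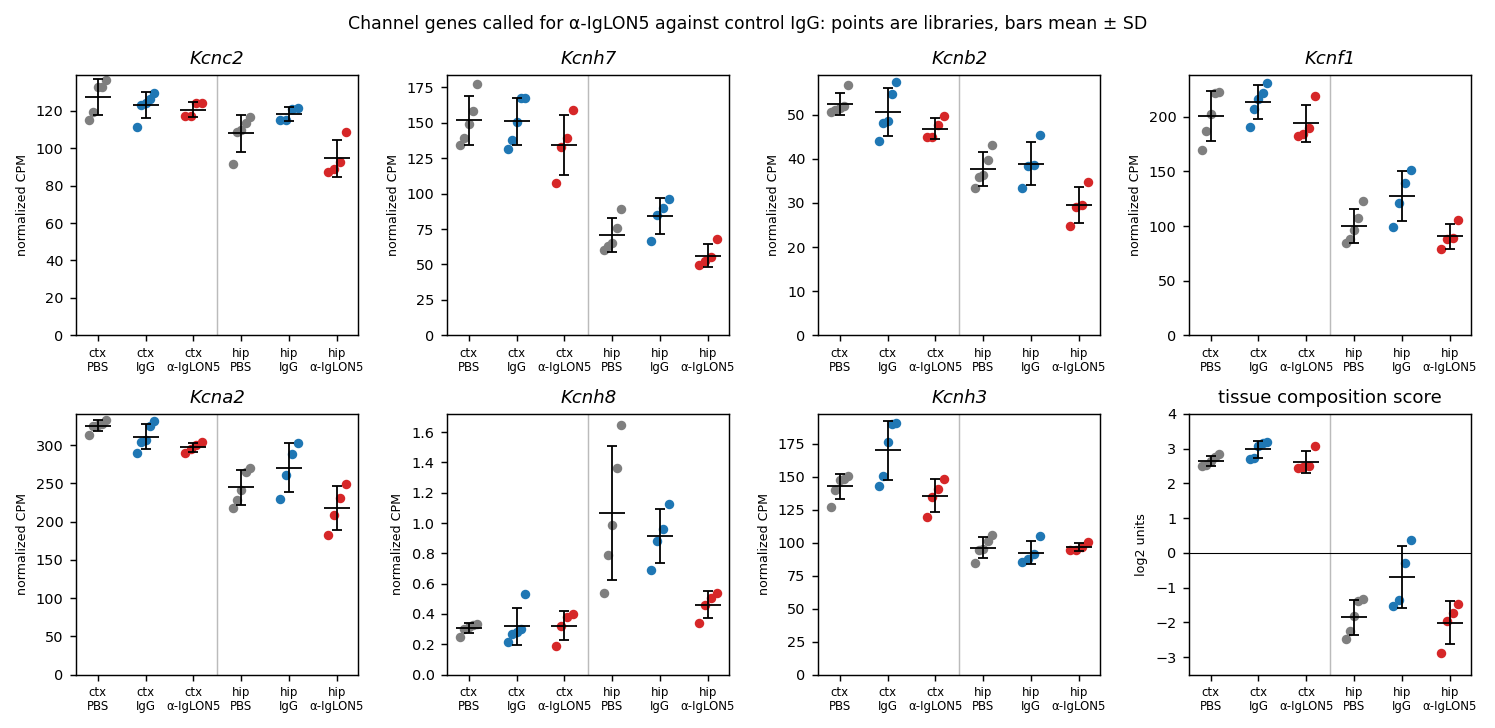
CPM of 7 members in each library of the 6 groups, with the tissue composition score in the last panel (points are libraries, bars are mean and SD). Kcnc2 and Kcnh8 did not overlap between α-IgLON5 and control IgG hippocampi, and the score of 2 control IgG hippocampi (-0.2799 and 0.3802) lay above those of all other hippocampi.

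Of the 6 called members, 5 were higher in cortex than in hippocampus in PBS mice, a comparison that shares no library with this one, whereas Kcnh8 was higher in hippocampus and still lower after α-IgLON5. Of the 19 members higher in cortex, 14 had a log2 fold change below 0 and 5 were called lower (median -0.16), and of all 2851 genes higher in cortex 85.8% were below 0 and 13.5% called lower (median -0.16). Of the 13 members higher in hippocampus, 4 were below 0, Kcnh8 was called lower and 0 were called higher (median 0.16). Of all 2569 such genes 17.7% were below 0, 0.0779% called lower and 7.71% called higher (median 0.15). Of the 8 members without a tissue call, 4 were below 0 and 0 were called, beside 1.19% called lower and 4.30% called higher among 14851 such genes. Cortex-side markers were called lower in 5 of 12 cases (median log2 fold change -0.48), with 0 called higher, and hippocampus-side markers were called higher in 1 of 12 (median 0.68). Other marker lists also moved. Summed microglial markers were at 373.5 to 432.5 CPM after control IgG and 547.6 to 979.9 CPM after α-IgLON5, and summed lymphocyte markers at 3.31 to 4.79 and 8.56 to 94.4 CPM. Interneuron markers, which matter for Kcnc2, were at 1059 to 1115 CPM and 864 to 1047 CPM with 0 of 10 genes called (median log2 fold change -0.17), and 2 of 10 pan-neuronal markers were called lower (median -0.12). No tested gene of these 4 lists was at 0 in a whole group, and the part of these lists in the members' differences was not tested.

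With the score as a covariate no member was called in this comparison, beside 0.794% of all genes. The log2 fold change of Kcnc2 was then -0.21 (adjusted p = 0.433 by edgeR), that of Kcnh7 -0.23 (adjusted p = 0.629) and that of Kcnb2 -0.15 (adjusted p = 0.688). Kcnf1 came to -0.11 (adjusted p = 0.811) and Kcna2 to -0.07 (adjusted p = 0.867). Kcnh8 came to -1.26 (adjusted p = 0.184). The score and the treatment go together in these 8 hippocampi, so the covariate also takes up part of any treatment effect. Without the hippocampi of mice 10 and 37, a setting chosen after the data were seen, the values were -0.28 for Kcnc2 (adjusted p = 0.175), -0.43 for Kcnh7 (0.282), -0.28 for Kcnb2 (0.328), -0.28 for Kcnf1 (0.464), -0.17 for Kcna2 (0.547) and -1.02 for Kcnh8 (0.247), and 0 members were called, beside 1.21% of all genes. Leaving out 1 library at a time, Kcnc2 (adjusted p up to 0.0290) and Kcnh7 (up to 0.0424) kept their calls in each of 8 runs. Kcnb2 lost it without mouse 37 (0.0907) or mouse 9 (0.0650), Kcnf1 without mouse 10, 37 or 9 (0.0578 to 0.0883), and Kcna2 without mouse 10, 37, 9 or 17 (0.0522 to 0.106).

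**Figure D5:**
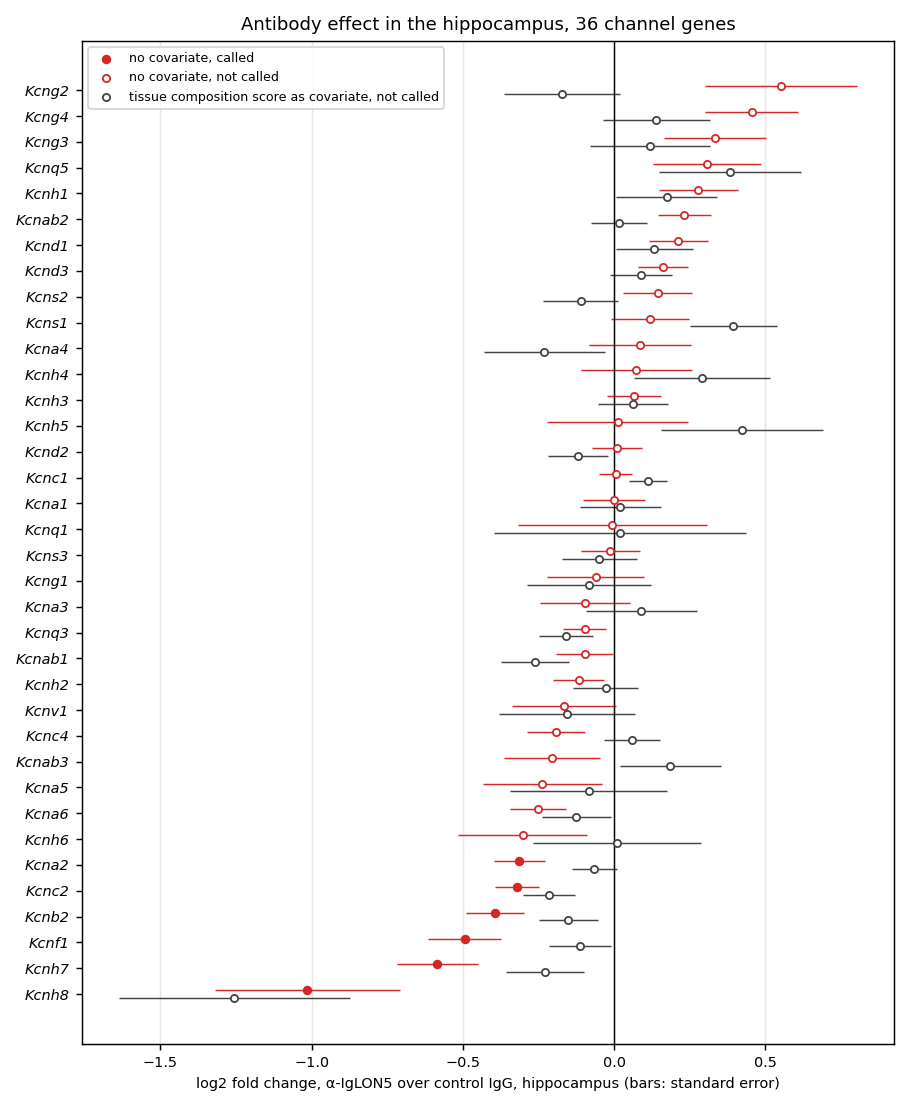
Log2 fold change of α-IgLON5 over control IgG hippocampi for 36 of the 40 tested members, without and with the tissue composition score as a covariate (bars are SE, filled points are called). Kcnf1 moved from -0.49 to -0.11 and Kcna2 from -0.31 to -0.07, whereas Kcnh8 was at -1.01 and -1.26.

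Members that missed the threshold in this comparison also included genes with higher means after α-IgLON5. For the silent subunit Kcng4 the log2 fold change was 0.45 (SE 0.153, adjusted p = 0.0712). DESeq2 called 8 members in this comparison, with Kcnb2, Kcnh7, Kcna2, Kcnc2 and Kcnf1 lower and Kcng4 among the 3 higher, beside 4.03% of all genes lower and 4.97% higher, and gave Kcnh8 an adjusted p of 0.0516.

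In cortex, 1 member was called between α-IgLON5 and control IgG, beside 3.46% of all genes in either direction, 3.01% higher and 0.449% lower. It was Kcnh3, an ELK-type subunit, at 176, 190.0, 142.5, 190.2 and 150.4 CPM in the control IgG cortices (mice 10, 11, 15, 37 and 75) and 119, 140.5, 148 and 135 CPM in the α-IgLON5 cortices. The α-IgLON5 cortices overlapped the control of mouse 15 and the PBS range (log2 fold change -0.32, SE 0.0842, adjusted p = 0.0265). The call was lost without the control cortex of mouse 10, 11 or 37 or the α-IgLON5 cortex of mouse 8 or 17 (adjusted p = 0.0629 to 0.176). The score was 3.082, 3.159, 2.71, 3.203 and 2.72 in the control IgG cortices, in the same order of mice. In the α-IgLON5 cortices it was 2.433, 2.473, 3.07 and 2.486. With the score as a covariate the call stood (log2 fold change -0.33, adjusted p = 0.0394 by edgeR). That covariate had the same slope in both tissues, and a slope for the cortices alone was not tested. The Kcnh3 call was lost with only the groups compared in the fit (adjusted p = 0.137) and in mice 8 to 17 (adjusted p = 0.158). Summed microglial markers were at 370 to 461.4 CPM in the control IgG and 536.4 to 602.6 CPM in the α-IgLON5 cortices, and summed lymphocyte markers at 3.37 to 4.02 and 9.13 to 38.4 CPM, without overlap, and their part in this difference was not tested. The silent subunits Kcng1 and Kcns1 came next. Kcng1 was at 23.1, 27.7, 42.1, 24.7 and 39 CPM after control IgG and 46.9, 54, 37.2 and 43 CPM after α-IgLON5, with overlap at mice 15 and 75 of the controls and 16 of the treated (log2 fold change 0.52, SE 0.154, adjusted p = 0.059). Kcns1 was at 25.5, 22.1, 18.5, 24.8 and 18.3 CPM and 13.5, 17.2, 19.6 and 15.8 CPM, also with overlap (log2 fold change -0.40, SE 0.121, adjusted p = 0.068). DESeq2 called both, Kcng1 higher (adjusted p = 0.022) and Kcns1 lower (0.0315), and edgeR without a count filter called Kcng1 (0.0324). In PBS cortices Kcng1 was at 46.2 ± 0.98 CPM and Kcns1 at 18.9 ± 1.98 CPM (SD, n = 5). Control mice 10, 11 and 37, lowest of their group in Kcng1 and highest in Kcns1, also had its highest composition scores. The members called lower in hippocampus had smaller values in cortex: -0.03 for Kcnc2, -0.17 for Kcnh7, -0.11 for Kcnb2, -0.14 for Kcnf1, -0.07 for Kcna2 and -0.00 for Kcnh8 on the log2 scale, none of them called. Kcnh8 was near the count filter, with 5 to 17 counts in the control IgG and 8 to 18 in the α-IgLON5 cortices. Over the 40 members the median was -0.09 against -0.01 over all genes, with 10 above 0 and 30 below (51.6% of all genes below), and 6 members had an unadjusted p under 0.05, beside 15.4% of all genes. No member was called past a 2-fold difference there, beside 2.16% of all genes.

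Whether the antibody effect differed between tissues was tested as an interaction. edgeR called 0 members and 0.0% of all genes, DESeq2 called 0 members and 0.0839% of all genes, and 17 members (42.5%) had an unadjusted p under 0.05, beside 10.6% of all genes. The smallest adjusted p was that of Kcnh1, an EAG-type subunit whose log2 fold change was 0.28 in hippocampus and -0.38 in cortex (difference 0.66, SE 0.18, adjusted p = 0.245 by edgeR). For Kcnh3 the difference was 0.39 (SE 0.122, adjusted p = 0.248). Without the hippocampi of mice 10 and 37 the differences were 0.54 for Kcnh1 and 0.30 for Kcnh3 (adjusted p = 0.805 for both), and edgeR again called 0 members. The lower hippocampal levels of Kcnc2, Kcnh7, Kcnb2, Kcnf1, Kcna2 and Kcnh8 were thus not shown to be particular to hippocampus.

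Against PBS instead of control IgG, 2 members were called in α-IgLON5 hippocampi, both lower, beside 4.29% of all genes in either direction, 3.81% higher and 0.474% lower. Past a 2-fold difference there was 1 member, beside 2.67% of all genes, and 7 had an unadjusted p under 0.05, beside 15.3%. These comparisons share the α-IgLON5 libraries with those above. All α-IgLON5 mice are numbered 8 to 17 and, of the PBS mice, only mouse 14 is, so treatment and number range cannot be told apart here. The PBS hippocampi (mice 14, 32, 33, 38 and 74) had 0.989, 0.541, 0.792, 1.36 and 1.65 CPM of Kcnh8. The PBS hippocampus of mouse 32 lay at the level of the highest α-IgLON5 hippocampi (log2 fold change -1.22, SE 0.297, adjusted p = 0.0121). For Kcnb2 the PBS hippocampi had 36.3, 43.1, 39.7, 35.9 and 33.4 CPM. Only mouse 74 of the PBS group lay under the highest α-IgLON5 hippocampus (log2 fold change -0.35, SE 0.0923, adjusted p = 0.0256). With the composition score as a covariate both calls stood (adjusted p = 0.011 for Kcnh8 and 0.0065 for Kcnb2), and with only the groups compared in the fit both were lost (0.113 for Kcnh8 and 0.114 for Kcnb2). The other members called against control IgG had log2 fold changes of -0.19 (Kcnc2), -0.33 (Kcnh7), -0.14 (Kcnf1) and -0.17 (Kcna2) against PBS, with adjusted p from 0.135 to 0.643. Kcnf1 had PBS levels of 84.2, 96.6, 107, 123 and 88.1 CPM in hippocampus, of which 3 lay within the range of the α-IgLON5 hippocampi. The call of Kcnb2 was lost on leaving out 5 of the 9 libraries and that of Kcnh8 on leaving out 1. Summed microglial markers were at 336 to 415.8 CPM in PBS and 547.6 to 979.9 CPM in α-IgLON5 hippocampi, lymphocyte markers at 2.80 to 4.04 and 8.56 to 94.4 CPM, and pan-neuronal markers at 8041 to 8932 and 7618 to 8176 CPM, and their part in these differences was not tested. DESeq2 called 3 members in this comparison, Kcnh8, Kcnb2 and the M-current subunit Kcnq3 (log2 fold change -0.21, adjusted p = 0.0450), each of them lower, beside 0.913% of all genes lower.

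In cortex 0 members were called between α-IgLON5 and PBS by edgeR or DESeq2, beside 3.05% of all genes (2.97% higher, 0.074% lower, 2.24% past a 2-fold difference) by edgeR and 3.42% by DESeq2, and 2 members had an unadjusted p under 0.05, beside 9.26%. The log2 fold changes of the 40 members ran from -0.24 to 0.06 and 37 were below 0, beside 56.5% of all genes, with a median of -0.10 against -0.02 over all genes. Microglial markers were at 376.6 to 400.5 CPM in PBS and 536.4 to 602.6 CPM in α-IgLON5 cortices and lymphocyte markers at 2.75 to 4.86 and 9.13 to 38.4 CPM, without overlap, and their part in this shift was not tested. Between control IgG and PBS, edgeR called 0 members in hippocampus, beside 0.192% of all genes (0.133% higher, 0.0592% lower, 0.0641% past a 2-fold difference), and 0 in cortex, beside 0.0%. At an unadjusted p under 0.05 there were 11 members in hippocampus and 7 in cortex, beside 14.0% and 8.14% of all genes. DESeq2 called 3 members lower in control IgG than in PBS hippocampi, Kcnq5 and Kcnd3 among them, beside 1.16% of all genes lower, and 0 members in cortex. In edgeR the values were -0.56 for Kcnq5 (adjusted p = 0.11) and -0.35 for Kcnd3 (0.0621). Without the hippocampi of mice 10 and 37 edgeR gave -0.58 for Kcnq5 and -0.18 for Kcnd3 and again called 0 members.

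Kv channels are assembled with partner proteins, and 17 such genes were listed, among them the KChIP and DPP subunits of Kv4 channels, the KCNE subunits and proteins that anchor Kv1 channels at the axon. In PBS mice 5 of the 15 that passed the filter were higher in cortex and 3 lower, beside 14.1% and 12.7% of all genes. Dpp10 and Kcnip3, Kv4 partners, had log2 fold changes of 1.63 (SE 0.18, adjusted p = 1.58e-07) and 0.60 (SE 0.0812, adjusted p = 2.54e-06), and Adam22, Kcnip4 and Cntn2 had 0.21, 0.25 and 0.38. Kcnip2 (-0.88), Dpp6 (-0.48) and Lgi1 (-0.35) were lower in cortex. The Kv4 genes Kcnd2 and Kcnd3 were higher in hippocampus, as were their partners Kcnip2 and Dpp6, whereas Dpp10, Kcnip3 and Kcnip4 were higher in cortex. Between α-IgLON5 and control IgG hippocampi, 3 of 15 partners were called, beside 7.01% of all genes. Dpp10 had a mean of 122.3 ± 39.2 CPM after control IgG and 70.1 ± 22.5 CPM after α-IgLON5 (SD, n = 4 each; log2 fold change -0.80, SE 0.199, adjusted p = 0.0149), and 79.9 ± 17.2 CPM after PBS. Kcnip3 had 131.9 ± 24.5 CPM and 107.1 ± 8.37 CPM (-0.30, SE 0.0908, adjusted p = 0.0435), and 104.3 ± 7.14 CPM after PBS. Kcnip2 was higher after α-IgLON5, with 100 ± 28.1 CPM after control IgG, 148.3 ± 19 CPM after α-IgLON5 (0.57, SE 0.151, adjusted p = 0.0226) and 148.4 ± 27.3 CPM after PBS. Dpp10 and Kcnip3, higher in PBS cortex, were lower after α-IgLON5, and Kcnip2, higher in PBS hippocampus, was higher. With the composition score as a covariate the log2 fold changes were -0.08 for Dpp10 (adjusted p = 0.905), -0.04 for Kcnip3 (0.940) and 0.17 for Kcnip2 (0.785). Without the hippocampi of mice 10 and 37 they were -0.41 (0.5004), -0.09 (0.785) and 0.26 (0.569), and 0 partners were called in either setting. For each of these 3 genes the PBS mean lay nearer to the α-IgLON5 mean than to the control IgG mean. None of the 15 was called in cortex between α-IgLON5 and control IgG, or in α-IgLON5 hippocampi against PBS.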

How the data were processed

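RNA-seq of 27 libraries of cortex and hippocampus was analysed from 1 table of raw counts. The authors deposited whole-number read counts, not normalized, with genes in rows and libraries in columns. Per the labels, paired-end stranded mRNA libraries were aligned with STAR to GRCm38, and the counting program, annotation and strand setting are not given in the sources used here. Of the 55487 gene IDs, 55141 matched GENCODE M21 after removal of the version, and 0 columns were unassigned. Groups come from tissue and treatment in the labels. The main test was edgeR 4.0.16 under R 4.3.3 (TMM, glmQLFit and glmQLFTest, 6 groups, no covariate, at least 10 counts in at least 4 libraries), adjusted by Benjamini-Hochberg over all 20271 tested genes. A difference called past a fold of 2 is given where named. CPM use the TMM effective library size. Alternatives were DESeq2 1.42.0, its size factors in edgeR, other filters, only the groups compared, the composition score centred within tissue as a covariate, mice 8 to 17, the mouse as a block, and each library left out. P-values of the main test rest on the spread between mice within groups, pooled over the 6 groups of both tissues. The main test takes the tissues of a mouse as independent. Pairs of libraries within groups were compared for duplicates (48 pairs, chi-square per degree of freedom at least 3.316), and none repeat each other.

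Mice were identified by the number in the sample titles. Deviations from the group means in the tissues of a mouse correlated at -0.0498 to 0.4432 over 13 mice (median 0.1936, 8 above 0.1). The members, gene lists and tests were chosen with earlier results of these data known. Values per library are given for members called in the α-IgLON5 against control IgG or PBS tissue comparisons (up to 10 each by adjusted p) and levels for the highest member of a subfamily, and other members are named in counts or chosen after their values were seen. 12 members share exon bases with another gene, 11 of them on the opposite strand, where reads could be shared if strand was ignored. The other is Kcnab2, which shares 125 exon bases with Gm16334 on the same strand, where strand cannot separate the reads. Some members counted here are not reported by name or plotted.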

Additional observations from a re-analysis of the deposited data

Results flagged for a closer look

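A library stood apart from the others of its group, by Dixon's test, in 4 of 102 groups of members and scores examined, and chance alone gives about 1 in 20. Kcnb2, a Kv2 subunit, was at 56.63 CPM in the PBS cortex of mouse 33, against 50.61 to 52.05 CPM in the other PBS cortices. Kcnv1, a silent subunit, was at 75.7 CPM in the PBS cortex of mouse 38, below the others at 103.4 to 108.9 CPM. Kcnh8, an ELK-type subunit, was at 0.5319 CPM in the control IgG cortex of mouse 10, against 0.2119 to 0.2993 CPM. The tissue composition score was 3.07 in the α-IgLON5 cortex of mouse 16, against 2.433 to 2.486 in the other α-IgLON5 cortices.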

How the results depend on the processing

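Of the 6 members called lower in α-IgLON5 than in control IgG hippocampi, 1 was past a 2-fold difference. With only the groups compared 1 was called (Kcnh7, adjusted p = 0.0473 by edgeR), beside 2.1% of all genes. Of these 6, 0 were called with the composition covariate (0.794% of all genes), in mice 8 to 17 (0.286%), or without the hippocampi of mice 10 and 37 (1.21%, chosen after the data were seen). Leaving out 1 library gave 2 to 9 calls, with 3 without control mouse 10, 2 without control mouse 37 or α-IgLON5 mouse 9, and 9 without control mouse 15. For fits with a library left out, here and below, the share of all genes called is not given. In cortex the 1 call became 0 past a 2-fold difference, with only the groups compared (1.79% of all genes) and in mice 8 to 17 (0.0493%), 3 with DESeq2 (4.52%) and 2 without a count filter (1.75%). It ran from 0 to 4 with a library left out, with 0 without control mouse 10, 11 or 37 or α-IgLON5 mouse 8 or 17, 3 without control mouse 75 or α-IgLON5 mouse 16 and 4 without control mouse 15. Against PBS the 2 hippocampal calls became 1 past a 2-fold difference and with at least 10 counts in every library (3.73% of all genes), and 0 with only the groups compared (3.2%). With a library left out there were 1 to 3, with 1 without PBS mouse 32, 33 or 74 or α-IgLON5 mouse 8 or 17. Between control IgG and PBS hippocampi the 0 calls of edgeR became 3 with DESeq2 (2.43% of all genes) and 1 with at least 10 counts in every library (0.194%). With a library left out there were 0 to 5, with 4 without PBS mouse 38, 5 without control mouse 15 and 3 without control mouse 75. The 3 partner genes called in hippocampus (alternatives chosen after the data were seen) became 0 with only the groups compared, with the composition covariate, in mice 8 to 17 and without the hippocampi of mice 10 and 37, and 0 to 3 with a library left out, with 0 without control mouse 37 or α-IgLON5 mouse 8 or 9 and 1 without control mouse 10. The tissue comparison held 7 members past a 2-fold difference in PBS, 8 in control IgG and 6 in α-IgLON5 mice, and 25 to 33, 17 to 21 and 22 to 26 calls with a library left out. The cortical comparisons with PBS and the interaction gave 0 calls in each setting run. All α-IgLON5 mice are numbered 8 to 17, whereas PBS mice 32, 33, 38 and 74 and control IgG mice 37 and 75 have higher numbers. Mice 8 to 17 include 1 PBS mouse, and PBS could not be compared there. The labels do not say whether mice of different number ranges were handled apart. No log2 fold change of a called member changed sign in any setting. For calls that were lost, the cause was not tested beyond what each setting leaves out.

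With the mouse as a block, where the tissues of a mouse are paired, 33 members were called in PBS mice (20 higher and 13 lower in cortex), 21 in control IgG mice (13 and 8), 29 in α-IgLON5 mice (15 and 14), and 0 in the interaction, beside 29.2%, 19.9%, 26.9% and 0.00987% of all genes. The block changed no count by more than 1.5 times. Kcna6 in α-IgLON5 mice (adjusted p = 0.061) was among the members not called with it, and Kcna4, Kcnq5 and Kcnd1 were called with it where they had missed the threshold.

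Depth limits the rarest members, since Kcnh8 had 9 to 16 counts in the α-IgLON5 hippocampi and 5 to 18 in the cortices, and Kcna7, Kcna10 and Kcnv2 could not be tested.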
